A study of Mus musculus with 15 samples.

Results

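The matrix metalloproteases (MMPs), the ADAM proteases, the ADAMTS proteases and the tissue inhibitors of metalloproteases (TIMPs) were described across 6 groups of mouse tissue macrophages. Members were taken by gene symbol, as Mmp, Adam or Adamts followed by a digit, or Timp1 to Timp4, from the authors' count table corrected for DNA contamination. The rule found 70 of its 24084 genes, made up of 19 Mmp, 31 Adam, 16 Adamts and 4 Timp genes, and used no expression value. RNA from sorted F4/80-positive, CD45-positive cells of C57BL/6J mice was profiled straight after isolation, without culture, by low-input RNA-seq.

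The groups were macrophages of sympathetic ganglia (SAM_ganglia, 3 libraries), of sympathetic nerve fibers dissected out of subcutaneous fat (SAM_fibers, 2), of subcutaneous fat (sATM, 2), of visceral fat (vATM, 2) and of spleen (SpM, 3), and microglia of the brain (Microglia, 3). The labels call the fat macrophages anti-inflammatory. SAM stands for the ganglia and fiber groups together. All groups share the strain, the sort gate and the tag ND in their titles, which the labels do not spell out. Libraries go by their group's name and their replicate number. Tissue came from 10 mice, the labels give no age, and nothing in them ties a library to an animal. A p-value here thus reflects only how much libraries vary, and that variation may be technical. Digestion cannot be told apart from tissue, because ganglia were digested in collagenase for 10 minutes and trypsin for 30 minutes, fibers in hyaluronidase for 30 minutes and collagenase for 15 minutes, and the other tissues in collagenase for 30 minutes.

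MMPs are zinc proteases that cut collagens and other matrix proteins and are made as inactive precursors. Most are secreted, while MMP14 is anchored in the cell membrane and activates the precursor of MMP2 together with TIMP2. ADAMs are membrane proteins, and ADAM10 and ADAM17 cut the outer part off other surface proteins such as TNF. ADAMTS proteases are secreted and bind the matrix, and the TIMPs block the active site of MMPs and of some ADAMs. Macrophages use these enzymes to enter and remodel tissue.

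Libraries held 2546393 to 12515863 estimated counts. Genes counted as ribosomal RNA (Rn45s, Lars2 and Mir6236) took 46.1 to 71.5% of them. Levels are counts per 1000000 (CPM) of all counts of the tested genes, ribosomal RNA included, after scaling by the trimmed mean of M-values (TMM). The limit that a count of 0 allows for counting error alone, 3 counts, corresponded to 0.249 to 0.897 CPM. Macrophage genes were high in every group, with a summed level of the 9 listed genes between 4522 and 12910 CPM. Microglia markers reached 12313 to 13594 CPM in Microglia and red pulp markers 9329 to 14318 CPM in SpM. The SAM_fibers pair had the lowest correlation within a group (Pearson r = 0.605 across the log levels of tested genes, which are not independent replicates), against 0.781 to 0.959 in the other groups. SAM_fibers 2 correlated more with each library of the other groups (0.612 to 0.787) than with SAM_fibers 1. With those libraries, SAM_fibers 1 correlated at 0.346 to 0.583.

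Of the 70 genes, 39 passed a filter on low counts and 12 differed among the 6 groups at an adjusted p below 0.05 (edgeR quasi-likelihood F-test, Benjamini-Hochberg adjustment over 15289 genes). That is 30.8% of the tested members, against 22.2% of all tested genes. By family, 5 of 10 tested Mmp genes, 5 of 21 Adam genes, 1 of 6 Adamts genes and 1 of 2 Timp genes differed. The 12 were Mmp2, Mmp9, Mmp13, Mmp14, Mmp19, Adam8, Adam10, Adam15, Adam19, Adam22, Adamts1 and Timp3. Compared per gene length, 12 to 14 of the 70 genes had a mean of at least 1 RPKM (a read level scaled to gene length and depth) in each group other than SAM_fibers, where 29 did. Of the 29, 11 were ADAM genes, most of them known from testis, whose summed level was highest in the library with the most counts over olfactory receptor genes. The other 18 stood against 10 to 13 in the other groups. Outside the 11, Adam7, Mmp10 and Mmp20 were also highest in SAM_fibers, at means of 5.07, 3.13 and 3.34 CPM. Their next highest group means were 0.695, 0.169 and 0.280 CPM. The part of DNA in the count of 18 was not tested.

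**Figure D1:**
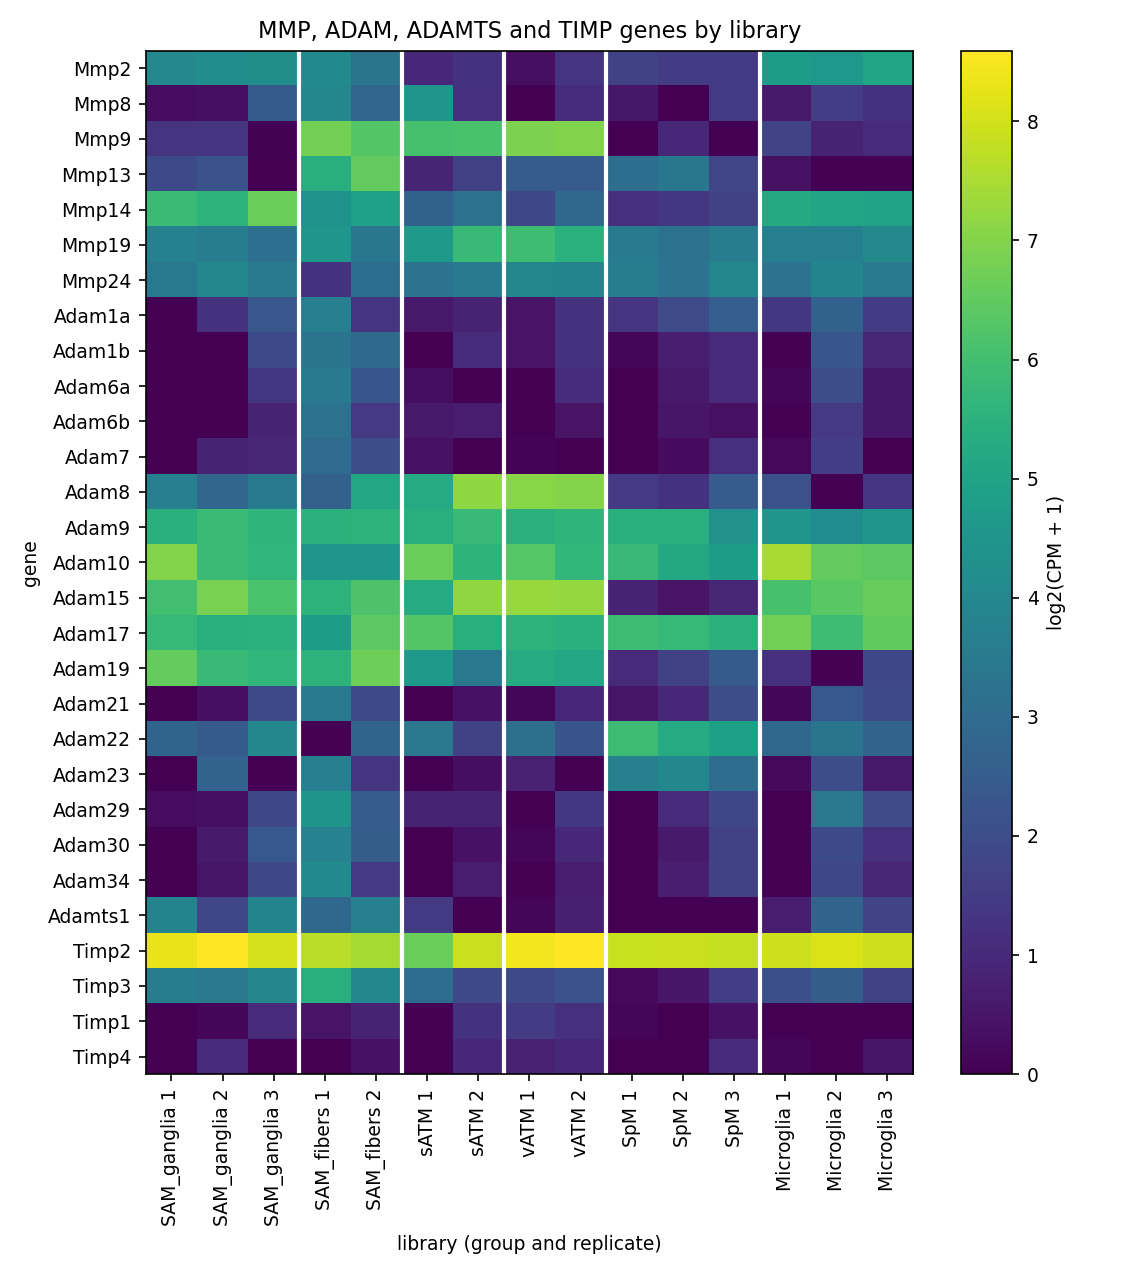
Level of 29 genes (rows) in each of 15 libraries (columns), as log2(CPM + 1); shown are the genes that reach a mean of 5 CPM in some group, and Timp1 and Timp4, which do not. Timp2 is bright in every library, Mmp9 is bright in SAM_fibers, sATM and vATM only, and Adam15 is dark in SpM.

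Mmp9 (chr2:164948219-164955850, mm10, plus strand), gelatinase B, split the groups into a high and a low set. It stood at 109 and 77.1 CPM in SAM_fibers, 66.5 and 68.3 CPM in sATM, and 118 and 123 CPM in vATM. SAM_ganglia had 1.45, 1.56 and 0.0264 CPM, SpM had 0, 0.99 and 0 CPM, and Microglia had 2.39, 0.82 and 1.01 CPM. No library of the first 3 groups overlapped any library of the others. On the log2 scale, fat was higher than the other 4 groups by 5.06 ± 0.45 (SE, adjusted p = 1.68e-06). SAM_ganglia were lower than SAM_fibers, with a log2 fold change of -6.47 ± 0.84 (adjusted p = 0.000779), a call that held without either SAM_fibers library, where the spread of the lone fiber library is taken from the other groups. Microglia were lower than the other 5 groups (-2.94 ± 0.67, adjusted p = 0.00515), but without SpM 2 that adjusted p was 1.0.

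Neutrophils also carry Mmp9, and the summed level of 10 neutrophil genes was 139 to 150 CPM in SAM_fibers, 28.3 to 58.8 CPM in sATM and 11 to 12.1 CPM in vATM, against 19.7 to 103 CPM in SAM_ganglia, 34.1 to 46.7 CPM in SpM and 101 to 124 CPM in Microglia. Among them, S100a8 was at 36.7 and 39.4 CPM in SAM_fibers and 0.120 and 0.119 CPM in vATM. Ly6g did not exceed 0.537 CPM in any library. Mmp9 was at its highest in vATM, where the neutrophil sum was lowest, and was also high in SAM_fibers, where that sum was highest. The part of neutrophils in the Mmp9 levels was not tested. In these bulk samples, fewer cells of a type and less RNA per cell cannot be told apart.

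Mmp13 (chr9:7272514-7283333, plus strand), the interstitial collagenase of mice, was high in SAM_fibers alone, at 41.3 and 90.5 CPM. SAM_ganglia had 2.78, 3.44 and 0 CPM, sATM 0.861 and 2.09 CPM, vATM 4.68 and 4.57 CPM, SpM 7.66, 9.39 and 2.48 CPM, and Microglia 0.318, 0 and 0 CPM. Both SAM_fibers libraries lay above all 13 others. SAM_fibers were higher than sATM, the fat from which the nerves were taken, by 5.44 ± 1.14 on the log2 scale (adjusted p = 0.0131), and this difference lost its call without sATM 1 (adjusted p = 0.122) or sATM 2 (adjusted p = 0.0828). SAM_ganglia were lower than SAM_fibers (-4.95 ± 0.93, adjusted p = 0.00755), so the SAM difference from the other 4 groups (log2 2.79 ± 0.56, adjusted p = 0.00439) came with ganglia values inside the range of the other groups. The 0 in SAM_ganglia 3 stood beside 115 raw counts over the gene body.

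Mmp13 lies at one end of a run of 9 Mmp genes of the table on chromosome 9 (mm10, positions 7272514 to 7699585). RefSeq promoter windows (build GRCm38.p6, 250 bases before to 50 after the start) were matched by symbol for 46 of the 70 genes, and for all 9 of this run. An AP-1 motif, TGANTCA on either strand, was present in 7.81% of all 32851 windows and in 12 of the 46 matched genes, and 7 of those 12 lay in the run. The matches follow with 25 bases on each side, 5′ to 3′, and the motif in capitals, so that Mmp13 can be set beside neighbours that match the same motif.
Mmp13 (chr9:7272454-7272510, plus strand): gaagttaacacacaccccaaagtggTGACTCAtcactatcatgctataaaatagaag
Mmp3 (chr9:7445751-7445807, plus strand): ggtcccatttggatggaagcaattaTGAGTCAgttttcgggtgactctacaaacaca
Mmp10 (chr9:7502254-7502310, plus strand): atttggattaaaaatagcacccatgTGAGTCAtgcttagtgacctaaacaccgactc
Mmp1a (chr9:7464043-7464099, plus strand): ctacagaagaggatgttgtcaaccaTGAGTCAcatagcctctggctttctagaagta
Mmp1b (chr9:7388088-7388144, minus strand): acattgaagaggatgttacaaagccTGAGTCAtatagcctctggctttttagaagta
Mmp7 (chr9:7692002-7692058, plus strand): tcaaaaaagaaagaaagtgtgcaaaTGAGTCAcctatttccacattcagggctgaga
Mmp20 (chr9:7628111-7628167, plus strand): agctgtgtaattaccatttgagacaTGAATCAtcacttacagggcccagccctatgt

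The motif began 35 bases before the start in Mmp13 and 46 to 95 bases before it in the other 6. Mmp3 and Mmp10 (stromelysins), Mmp1a and Mmp1b (mouse collagenases), Mmp7 (matrilysin) and Mmp20 (enamelysin) did not exceed 5.86 CPM in any library, a value reached by Mmp10 in SAM_fibers 1. Mmp8 and Mmp27, the remaining genes of the run, held no such match in the window. Mmp8, a collagenase known from neutrophils, had 14.7 and 5.94 CPM in SAM_fibers and 22.4 and 1.27 CPM in sATM, and did not pass the test among groups (adjusted p = 0.159). A CRE motif (TGACGTCA on either strand, in 1.79% of all windows) was in the window of 0 matched genes, and a PU.1 motif (GAGGAAGT on either strand, in 3.2%) in those of Mmp7, Mmp8 and Adam29. Outside the run, the sheddase gene Adam19 held an AP-1 match that began 131 bases before the RefSeq start, which lies inside the gene as the count table places it.
Adam19 (chr11:46055828-46055884, plus strand): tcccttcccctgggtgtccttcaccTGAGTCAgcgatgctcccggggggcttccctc
A match of letters shows no binding, and its absence says nothing of the factor.

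Mmp14 (chr14:54431598-54442456, plus strand), the membrane-anchored MMP, and Mmp2 (chr8:92827297-92853421, plus strand), gelatinase A, whose precursor it activates, had high levels in the same 3 groups. Mmp14 stood at 56.5, 45.7 and 99.3 CPM in SAM_ganglia, 19.7 and 29.2 CPM in SAM_fibers and 37.2, 33.2 and 31 CPM in Microglia. It was at 5.39 and 8.37 CPM in sATM, 2.67 and 6.33 CPM in vATM and 1.3, 1.62 and 2.18 CPM in SpM. Mmp2 was at 15.6, 17.6 and 18.1 CPM in SAM_ganglia, 16 and 8.89 CPM in SAM_fibers and 25.2, 23 and 33 CPM in Microglia, and did not exceed 2.22 CPM in sATM, vATM or SpM. For each of the pair, all 8 libraries of the high groups lay above all 7 of the low groups.

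Against the other 4 groups, SAM was higher for Mmp14 by 2.64 ± 0.26 (adjusted p = 4.92e-06) and for Mmp2 by 2.40 ± 0.32 (adjusted p = 0.000126), on the log2 scale. Microglia were higher than the other 5 groups for Mmp2 by 2.99 ± 0.33 (adjusted p = 6.94e-06) and for Mmp14 by 1.79 ± 0.28 (adjusted p = 0.000208). Fat was lower for Mmp2 (-3.32 ± 0.43, adjusted p = 6.99e-05) and Mmp14 (-1.64 ± 0.31, adjusted p = 0.0021; 0.0651 without vATM 1). SpM was lower for Mmp14 (-3.39 ± 0.40, adjusted p = 1.43e-05). SAM_fibers exceeded sATM for Mmp2 by 3.33 ± 0.65 (adjusted p = 0.00918), a call lost without sATM 1 (0.119) or sATM 2 (0.0955). For Mmp14 the same difference (1.81 ± 0.49, adjusted p = 0.0452) was lost in 17 of 21 alternatives, among them the raw counts, where it changed sign (-0.12, adjusted p = 0.929).

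Fibroblasts are a known source of Mmp2 and Mmp14, and 10 fibroblast genes other than Fn1 summed to 140 to 185 CPM in SAM_ganglia, 255 to 307 CPM in SAM_fibers and 49.0 to 83.0 CPM in Microglia, against 43.8 to 51.9 CPM in sATM, 58.1 to 73.7 CPM in vATM and 0.885 to 3.32 CPM in SpM. Between 1 and 4 of the 10 were at 0 in each library outside SpM. Fn1, which macrophages also express, lifted the sums to 186 to 514 CPM in SAM and to 898 to 2742 CPM in the fat groups. Without Fn1, the sum was highest in SAM, where both genes were high, and within SAM it was lower in ganglia, where Mmp14 was higher. The fat groups and Microglia had similar sums without Fn1, and Mmp2 differed between them without overlap. With Fn1, the Microglia sums were 62.2 to 83.9 CPM. The part of fibroblasts in the Mmp2 and Mmp14 levels was not tested. Schwann cell genes summed to 27.9 to 187 CPM in SAM_ganglia and 177 to 354 CPM in SAM_fibers, and genes of sympathetic neurons to 110 to 157 CPM and 293 to 779 CPM in those groups. The part of these cells in the SAM values was not tested.

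**Figure D2:**
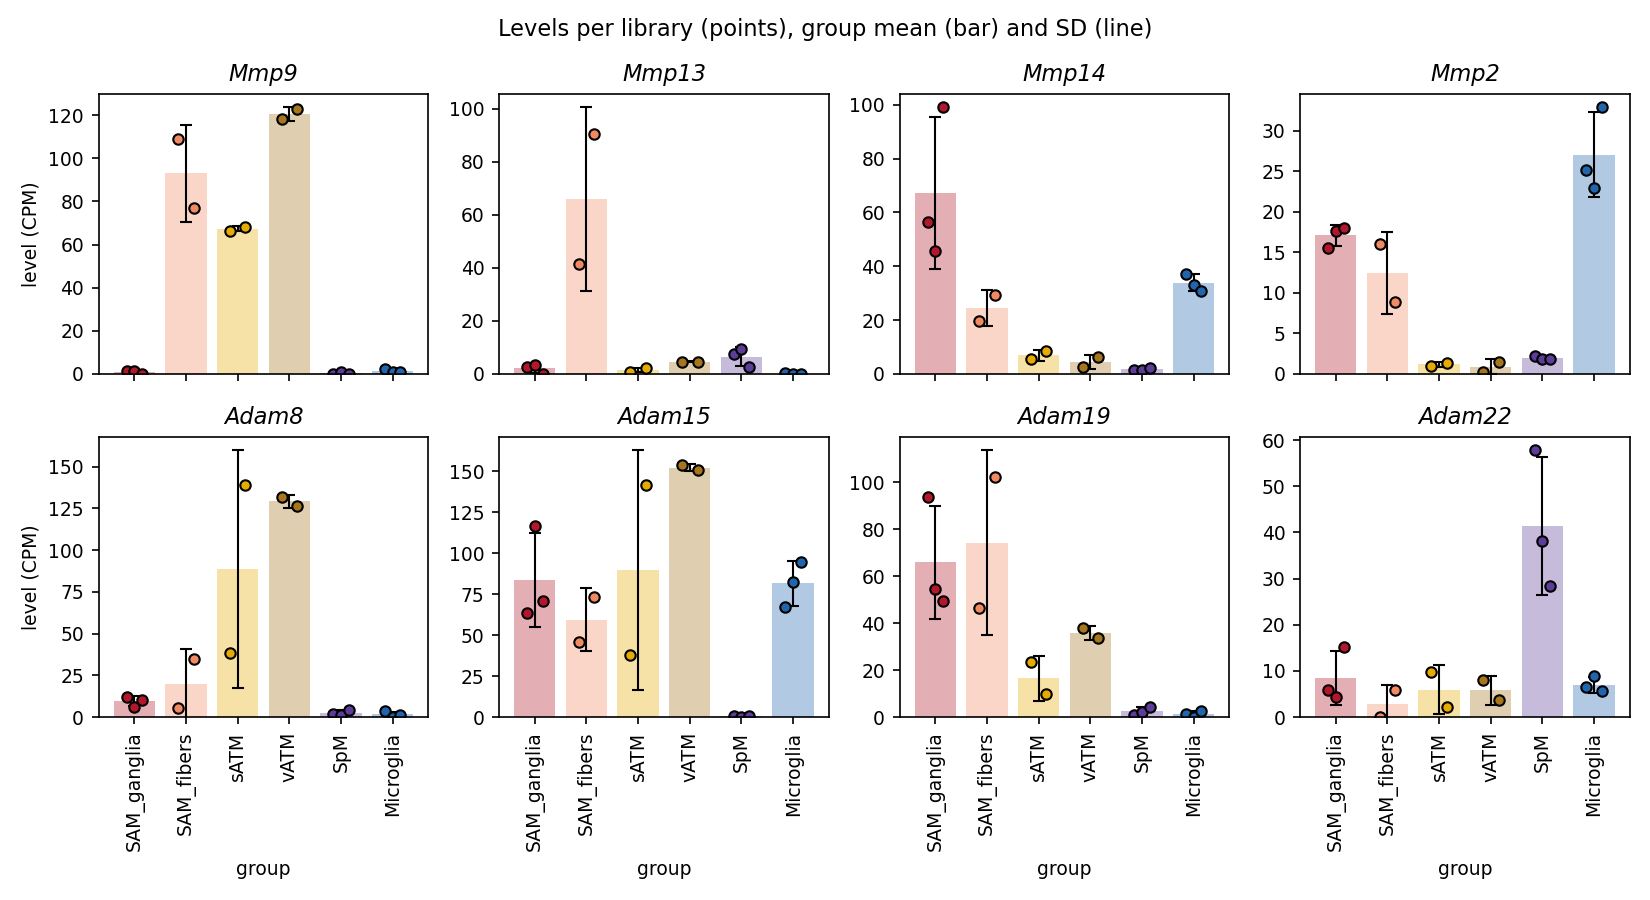
Level in CPM of 8 genes in the 6 groups; points are libraries, bars are group means and lines are the SD (n = 2 or 3). Mmp9 is high in SAM_fibers, sATM and vATM, Mmp13 in SAM_fibers, Mmp14 and Mmp2 in SAM_ganglia, SAM_fibers and Microglia, Adam8 in vATM and sATM, and Adam22 in SpM, where Adam15 is near 0.

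Mmp19, a secreted MMP also found on myeloid cells, was highest in fat. It was at 23.3 and 55.4 CPM in sATM and 59.9 and 44 CPM in vATM, against 7.73 to 12.7 CPM in SAM_ganglia, 22 and 9.36 CPM in SAM_fibers, 8.19 to 11.1 CPM in SpM and 12.1 to 15.6 CPM in Microglia. Every fat library lay above every other library, and the log2 difference was 1.89 ± 0.26 (adjusted p = 0.000145). Mmp24, a membrane-anchored MMP known from neurons, showed no call and lay between 1.39 and 14.6 CPM in all libraries (adjusted p = 0.444 among groups). Mmp15, also membrane-anchored, was at 2.37, 4.01 and 2.88 CPM in Microglia and at most 1.8 CPM elsewhere, with both sATM libraries at 0. It was named after its values were seen (adjusted p = 0.045 for Microglia against the other 5 groups). That call was lost with SpM left out of the other groups. Mmp15 was listed at 0 beside 186 raw counts in SAM_ganglia 3.

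Among the ADAMs with protease activity, Adam8 (chr7:139978932-139992562, minus strand) was highest in the fat groups. It stood at 38.3 and 139 CPM in sATM and 132 and 126 CPM in vATM, against 12.2, 6.11 and 10.3 CPM in SAM_ganglia, 5.2 and 34.7 CPM in SAM_fibers, 1.68, 1.41 and 4.51 CPM in SpM and 3.39, 0 and 1.51 CPM in Microglia. Fat and the rest did not overlap, although sATM 1 and SAM_fibers 2 came close. The difference was 4.29 ± 0.48 on the log2 scale (adjusted p = 1.86e-05), and this call held in all 22 alternatives. SpM (-3.09 ± 0.71, adjusted p = 0.00623; 0.0527 without SpM 2) and Microglia (-3.55 ± 0.74, adjusted p = 0.00286) were lower than the other 5 groups.

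Adam15 (chr3:89339640-89350028, minus strand), an ADAM with an RGD integrin-binding motif in human, was near 0 in spleen. SpM had 0.759, 0.354 and 0.891 CPM, against 37.9 to 154 CPM in the 12 other libraries, a log2 difference of -7.05 ± 0.54 (adjusted p = 1.39e-07). Raw counts over the gene were also low in SpM, with a mean of 43.7 ± 25.1, against group means of 686 to 2588 elsewhere (SD, n = 3 for SpM). The low spleen level entered every mean that Adam15 was set against. SAM was called higher than the other 4 groups by 1.26 ± 0.28 on the log2 scale (adjusted p = 0.00813) although its mean level was 71.5 CPM, against 81.0 CPM, and without SpM the difference was -0.56 (adjusted p = 0.271). Microglia had a mean of 81.6 CPM, against 77.1 CPM, and their difference of 1.26 ± 0.30 became -0.16 without SpM. The fat groups had 121 CPM, against 56.3 CPM. Their 2.36 ± 0.28 became 0.66 without SpM, which kept its sign but lost its call (adjusted p = 0.179).

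Adam19 (chr11:46054502-46147347, plus strand), which can shed neuregulins, was at 93.7, 54.7 and 49.4 CPM in SAM_ganglia and 46.5 and 102 CPM in SAM_fibers. Values were 23.4 and 9.89 CPM in sATM, 37.8 and 33.9 CPM in vATM, 1.01 to 4.44 CPM in SpM and 1.28, 0 and 2.62 CPM in Microglia. The 5 SAM libraries lay above all others, and SAM was higher by 3.37 ± 0.39 on the log2 scale (adjusted p = 3.19e-05). SpM (-3.10 ± 0.59, adjusted p = 0.00145) and Microglia (-4.03 ± 0.64, adjusted p = 0.000288) were lower than the other 5 groups. The 0 in Microglia 2 stood beside 633 raw counts.

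The main sheddases varied less. Adam10 (chr9:70678982-70780229, plus strand) was highest in Microglia, at 175, 92.1 and 85.2 CPM, against 21.4 and 22.1 CPM in SAM_fibers, 49.7 to 125 CPM in SAM_ganglia and 26.2 to 96.9 CPM in the fat groups and SpM. The groups overlapped, and the log2 difference of 1.24 ± 0.31 (adjusted p = 0.00975) was lost without Microglia 1 (0.78, adjusted p = 0.169). Adam17 lay between 25.7 and 108 CPM in all libraries and did not differ among groups at the threshold (adjusted p = 0.387). Adam9, another sheddase, just missed that threshold (adjusted p = 0.0509), with 22.2, 17.1 and 22.5 CPM in Microglia against 19.2 to 56.4 CPM elsewhere. Microglia were lower than the other 5 groups (-1.10 ± 0.26, adjusted p = 0.00711; 0.0524 without Microglia 2).

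Adam22 (chr5:8072347-8368160, minus strand), which lacks protease activity and binds LGI proteins at synapses, was at 57.8, 38.2 and 28.4 CPM in SpM, above all 12 other libraries, which reached at most 15.3 CPM. SpM was higher than the other 5 groups by 2.86 ± 0.52 on the log2 scale (adjusted p = 0.00102), while the test among all groups lost its call without SpM 1 (adjusted p = 0.129) or SpM 2 (0.0624). Adam22 was listed at 0 in SAM_fibers 1 beside 5583 raw counts. Its relative Adam23, also without protease activity, was at 12.2, 15.3 and 7.33 CPM in SpM, against 0 to 11.7 CPM elsewhere (3.57 ± 1.01, adjusted p = 0.0241), and was named after its values were seen. Adam23 was listed at 0 beside 1234 raw counts in SAM_ganglia 3.

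Of the ADAMTS genes, Adamts1, which cuts the proteoglycans aggrecan and versican, was at 13.3, 2.55 and 13.3 CPM in SAM_ganglia and 6.33 and 12.5 CPM in SAM_fibers. It was at 1.78 and 0 CPM in sATM, 0.0938 and 0.701 CPM in vATM, 0.57, 5.66 and 2.36 CPM in Microglia, and 0 in all 3 SpM libraries. The SAM libraries overlapped Microglia. SAM was called higher than the other 4 groups (adjusted p = 0.00311), and against the fat groups and Microglia alone the log2 difference was 3.24 (adjusted p = 0.0465). The other 5 tested Adamts genes did not differ among groups. Adamts9, called higher in SpM (adjusted p = 0.0354) and named after its values were seen, was at 3.33, 0.607 and 1.04 CPM in SpM and at 0 in all SAM_fibers, vATM and Microglia libraries, where up to 2733 raw counts stood beside the 0.

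The inhibitors differed from each other. Timp2, which inhibits MMPs and helps MMP14 to activate MMP2, was the most abundant of the 70 genes per gene length. It averaged 81.5 ± 7.2 RPKM in SAM_ganglia, 49.7 ± 3.4 in SAM_fibers, 46.4 ± 31.1 in sATM, 79.4 ± 22.3 in vATM, 70.4 ± 4.1 in SpM and 85.7 ± 20.8 in Microglia (SD, n = 3, 2, 2, 2, 3 and 3). It made up 20.9% of the summed mean RPKM of all members in SAM_fibers and 53.2% in SpM. It did not differ among groups at the threshold (adjusted p = 0.116), and its log2 differences were -0.01 ± 0.19 for SAM, 0.03 ± 0.20 for fat, -0.10 ± 0.22 for SpM and 0.07 ± 0.22 for Microglia, each against all other groups.

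Timp3, which stays bound to the matrix and also inhibits ADAM17, was highest in SAM, at 11.6, 9.79 and 13.9 CPM in SAM_ganglia and 42.2 and 15.3 CPM in SAM_fibers, against 0.14 to 7.21 CPM in all other libraries. SAM and the rest did not overlap (log2 2.85 ± 0.45, adjusted p = 0.000571). SpM was lower than the other 5 groups at 0.14, 0.432 and 2.03 CPM (-3.11 ± 0.69, adjusted p = 0.00486), also without overlap. Timp1, an inducible inhibitor, reached 1.88 CPM at most, in vATM 1, and was at 0 in all Microglia libraries. Timp4 reached at most 1.09 CPM. Neither passed the filter on low counts.

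Counted by comparison, SAM was higher for 7 members and lower for 0 of the 39 tested, against 5.71% and 3.44% of all tested genes called higher and lower. In edgeR, 13 members had an unadjusted p below 0.05 in that comparison. The share of all genes at that unadjusted cutoff is not given here, so this count cannot be set against the whole table. Fat was higher for 4 and lower for 2 (5.66% and 2.9% of all genes). SpM was higher for 3 and lower for 9 (6.72% and 5.72%). The 9 members lower in SpM were Mmp2, Mmp9, Mmp14, Mmp19, Adam8, Adam15, Adam19, Adamts1 and Timp3, of which Mmp2 lost its call in 10 of 21 alternatives, Mmp19 in 15 and Adamts1 in 4. Microglia were higher for 5 and lower for 5 (7.26% and 6.47%), the higher ones being Mmp2, Mmp14, Mmp15, Adam10 and Adam15, and the lower ones being Mmp9, Mmp13, Adam8, Adam9 and Adam19. With SpM left out, Adam15 was at -0.16 in Microglia and -0.56 in SAM, and 8 members were called for Microglia, with neither Mmp15 nor Adam15 among them.

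SAM_fibers against sATM gave 3 members higher and 0 lower (1.85% and 2.99% of all genes), namely Mmp2, Mmp13 and Mmp14, with 12 members at an unadjusted p below 0.05 in edgeR. No member was called in that comparison without sATM 1 or without sATM 2. SAM_ganglia against SAM_fibers gave 0 higher and 2 lower (2.85% and 1.27%), Mmp9 and Mmp13, with 6 members at an unadjusted p below 0.05. Between the fat depots, sATM against vATM, 0 members were called in edgeR, 0 in DESeq2 and 0 in limma, against 0.0196% of all genes in each direction. There, 2 members had an unadjusted p below 0.05. The percentages in this paragraph are shares of all genes called by adjusted p. None is given for the unadjusted p, so those counts cannot be set against the whole table. Timp2 was at 100 and 240 CPM in sATM and 347 and 385 CPM in vATM (log2 -1.10 ± 0.35, adjusted p = 0.598).

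**Figure D3:**
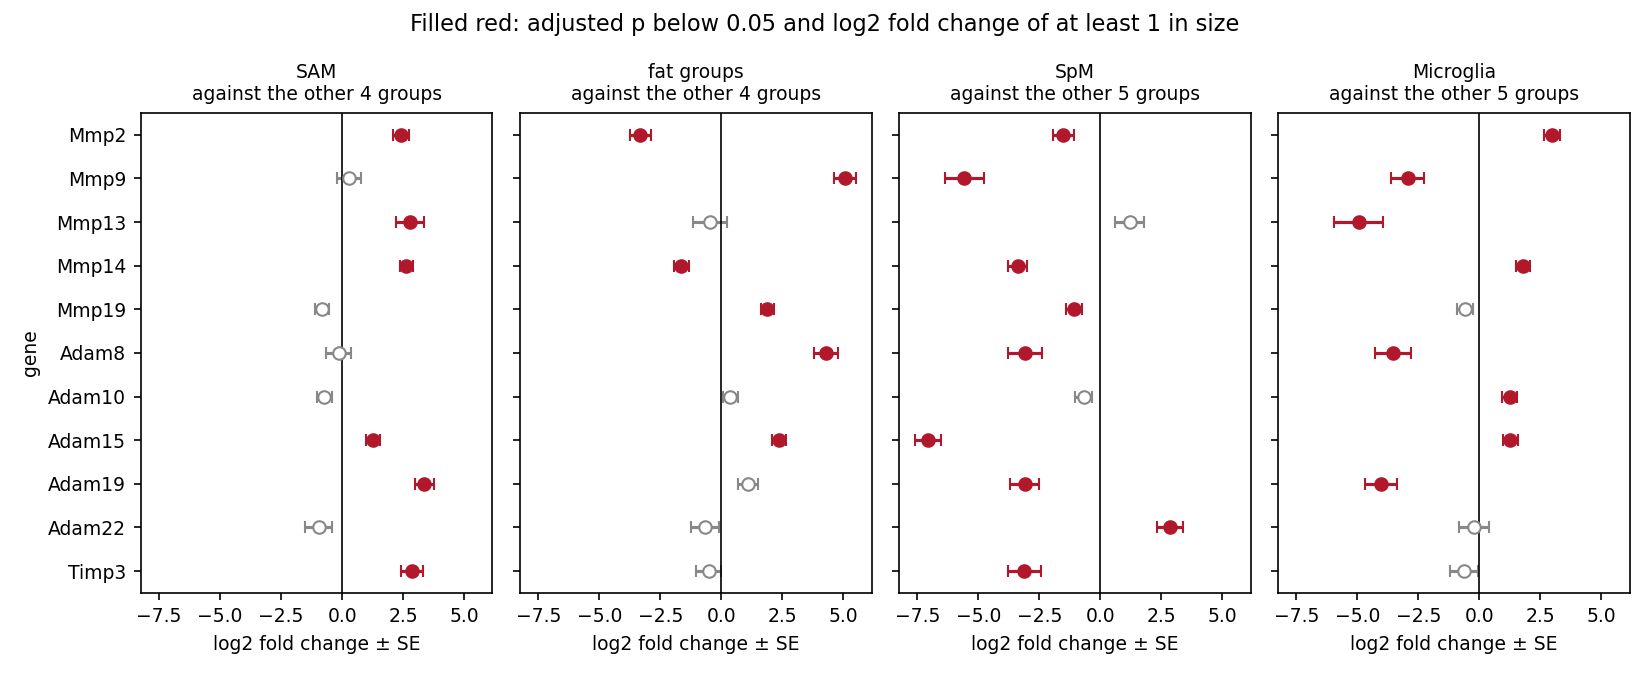
Log2 fold change with its SE for 11 of the 12 genes that differed among the groups (Adamts1, at 0 in SpM, is left out), in 4 comparisons of a group or pair of groups with all others; filled red points passed an adjusted p of 0.05 and a log2 fold change of 1 in size. Mmp9 and Adam8 have their highest log2 fold change in the fat comparison (5.06 and 4.29), and Adam15 reaches -7.05 in SpM. The mean Mmp9 level of SAM_fibers lay above that of sATM and below that of vATM.

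The corrected table lists many members at 0, so their raw gene-body counts, introns included, were set beside it. In 147 cases, spread over 34 members, a library had at least 100 raw counts and a corrected value of 0. Adam12, with its long gene, had 10 such libraries and up to 6606 raw counts, Adamts17 had 8 and up to 6014, Adamts3 had 8 and up to 4357, Adamts19 had 7 and up to 4407, and Adamts2 had 6 and up to 3556. Adam22 had the case in SAM_fibers 1 given above. Adamts18 was at 0 in all 15 libraries. SAM_fibers 1 held 59 members with 100 raw counts or more, of which 26 were at 0 (44.1%, against 39.9% of all genes with as many counts). In vATM 2 it was 15 of 31 (48.4%, against 12.8%), and in vATM 1 it was 1 of 12 (8.33%).

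Raw counts over 1125 olfactory receptor genes, in which any transcripts would also count, were taken as an approximate measure of DNA in a library. Per 1000000 raw counts they ran from 32.9 in vATM 1 to 1233 in SAM_fibers 1, with 686 in SAM_fibers 2, 857 in SAM_ganglia 3 and 1085 in Microglia 2. The 5 libraries with the lowest olfactory receptor counts were replicate 1 of SAM_ganglia, sATM, vATM, SpM and Microglia. In those 5, 12 to 14 members reached 100 raw counts and 7.69 to 21.4% of them were at a corrected 0, against 3.91 to 8.02% of all genes with as many counts. In the other 10 libraries, 26 to 59 members did and 24.1 to 48.4% of them were at 0, against 6.98 to 39.9% of all genes. A 0 in the corrected table was therefore read only as a listed value.

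A group of ADAM genes was high in the same libraries. Adam1a, Adam1b, Adam4, Adam6a, Adam6b, Adam21, Adam26a, Adam26b, Adam29, Adam30 and Adam34, most of them known from testis, held whole numbers in every library (within 1e-09). Adam1a, Adam1b, Adam4, Adam6a and Adam6b kept at least 90% of their raw counts (Adam1a, 226 of 230). Adam29 kept 211 of 2278. The 11 summed to 119 CPM in SAM_fibers 1, 33.5 CPM in SAM_fibers 2, 42.7 CPM in Microglia 2 and 30.5 CPM in SAM_ganglia 3, against 0.231 CPM in SAM_ganglia 1 and 3.11 CPM in vATM 1. In edgeR, 0 of the 11 passed the test among groups and 0 had an unadjusted p below 0.05. The part of DNA in their levels was not tested.

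**Figure D4:**
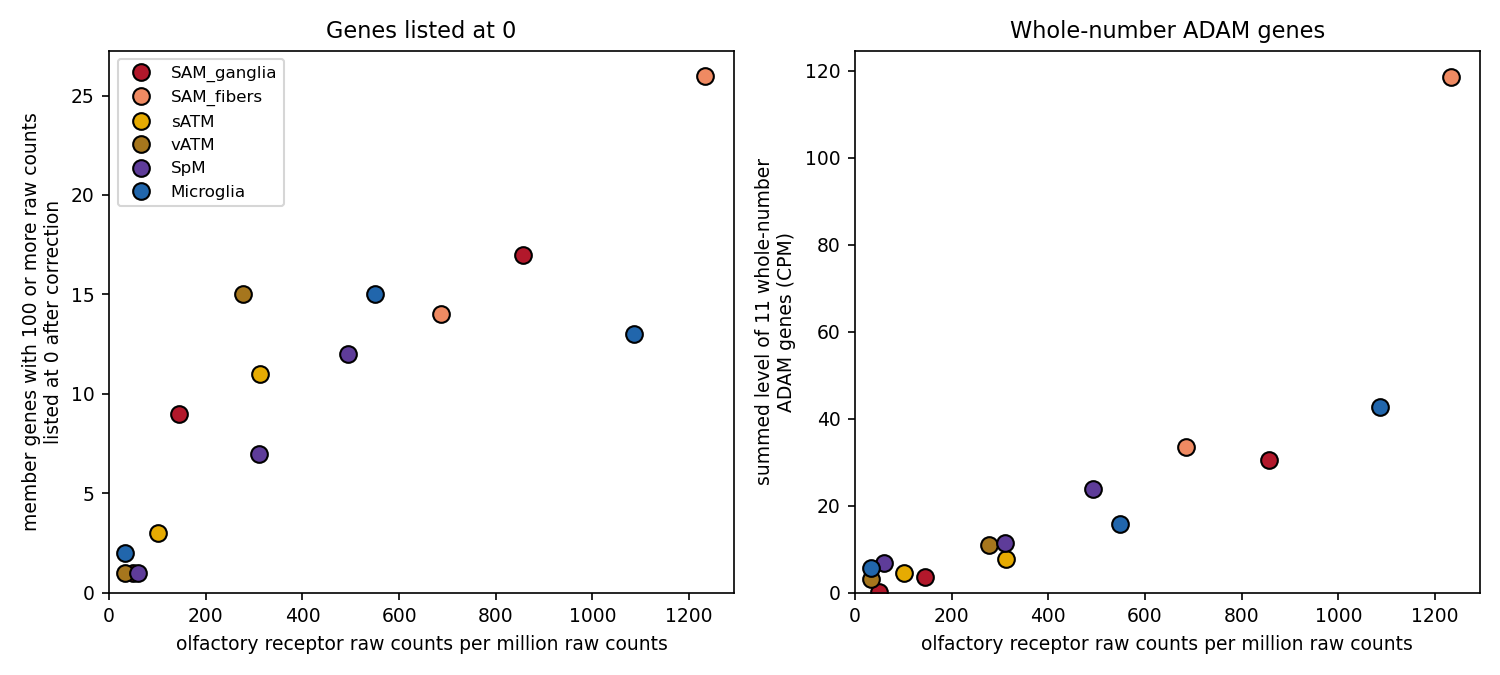
For each library, the number of members listed at 0 despite 100 or more raw counts (left) and the summed level in CPM of 11 ADAM genes with whole-number values (right), both against olfactory receptor raw counts per 1000000 raw counts. SAM_fibers 1, at 1233 on the horizontal axis, has the highest value in both panels, 26 genes and 119 CPM.

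Medians were taken over these 11 genes and over the rest of the family. The median log2 difference of SAM_fibers from sATM was 3.65 for them and 0.41 for the other 28 tested members, against 0 for all genes. For SAM against the other 4 groups it was 1.70 and 1.31, against 0.02, and for SAM_ganglia against SAM_fibers it was -2.67 and -0.23, against 0. For fat it was -1.84 and -0.43, against -0.06. For SpM it was -0.56 and -0.77, against -0.03, and for Microglia 0.40 and 0.11, against 0.29. For sATM against vATM it was -0.02 and -0.02, against -0.04. Members that passed the filter through a group in which they are high had to differ, so these medians are given as a description.

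Genes that act on or with these proteases were counted in the same fit, and those named are among the called ones with the smallest p. Of 21 tested regulators of MMP and ADAM activity, 12 differed among groups, against 22.2% of all tested genes. SAM was higher for 3 (5.71% of all genes), including the urokinase gene Plau (log2 2.60 ± 0.40, 39.6 CPM against 6.70 CPM) and Rhbdf1, a partner of ADAM17 (1.74 ± 0.52). Fat was higher for 4 and lower for 2 (5.66% and 2.9%), led by the urokinase receptor gene Plaur (2.59 ± 0.25, 69.9 CPM against 22.7 CPM). Furin, whose product cuts the precursors of MMP14 and ADAMs, was also higher there (1.26 ± 0.20). SpM was higher for 3 and lower for 5 (6.72% and 5.72%), among them Tspan15, an ADAM10-binding tetraspanin (7.27 ± 0.70, 61.8 CPM against 0.692 CPM), Rhbdf2, another ADAM17 partner (2.17 ± 0.33), and Plaur (-2.65 ± 0.36). Microglia were higher for 3 and lower for 2 (7.26% and 6.47%), led by the protease inhibitor gene Serpine2 (7.72 ± 0.34, 292 CPM against 2.05 CPM) and Tspan14, a tetraspanin that carries ADAM10 to the surface (1.73 ± 0.17).

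Of 26 tested substrates of ADAM10 or ADAM17, 18 differed among groups, against 22.2% of all tested genes. SAM was higher for 6 and lower for 0 (5.71% and 3.44% of all genes), led by the chemokine gene Cxcl16 (3.40 ± 0.26, 278 CPM against 37.9 CPM) and Tnf (3.31 ± 0.29, 158 CPM against 24.0 CPM). SAM_fibers were higher than sATM for 5 of them (1.85% of all genes), including Tnf (3.44 ± 0.57) and the adhesion gene Icam1 (2.94 ± 0.56). SAM_ganglia were lower than SAM_fibers for 4 (1.27%), including Icam1 (-3.47 ± 0.49) and Hbegf, a growth factor gene (-3.41 ± 0.59). Microglia were higher for 4 and lower for 7 (7.26% and 6.47%), including the receptor gene Trem2 (5.62 ± 0.27), the growth factor gene Tgfa (6.02 ± 0.51) and the scavenger receptor gene Cd163 (-6.24 ± 0.53). SpM was higher for 8 and lower for 4 (6.72% and 5.72%), including the adhesion gene Vcam1 (7.52 ± 0.35), Trem2 (0.0915 CPM against 266 CPM) and Cxcl16 (-4.32 ± 0.41). Fat was higher for 2 and lower for 5 (5.66% and 2.9%), including Csf1r, the receptor of a macrophage growth factor (-1.35 ± 0.19). Csf1r, Mertk, Vcam1 and Cd163 of this list also serve as markers of macrophage types here.

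Of 17 other tested proteases and relatives, 8 differed among groups, against 22.2% of all tested genes. SpM was higher for 3 and lower for 1 (6.72% and 5.72% of all genes), led by Adamdec1, an ADAM relative (247 CPM against 0.343 CPM), and the lysosomal protease gene Ctsb (1.96 ± 0.17). Microglia were higher for 3 and lower for 2 (7.26% and 6.47%), the higher ones being the lysosomal protease genes Ctsd (3.08 ± 0.27), Ctsl (2.49 ± 0.23) and Ctss (1.68 ± 0.17). Fat was higher for 4 and lower for 0 (5.66% and 2.9%), led by the matrix gene Ecm1 (5.46 ± 0.42), and SAM was higher for 0 and lower for 2 (5.71% and 3.44%), including Ctsd (-1.69 ± 0.29).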

How the data were processed

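Low-input RNA-seq of 15 libraries in 6 groups was used. The submitters' processing notes name STAR, HOMER and build mm10, with no version and no word on strand. The authors deposited estimated counts corrected for DNA contamination, uncorrected gene-body counts, and RPKM values, per the file headers. Tests on the rounded estimated counts used edgeR 4.0.16 under R 4.3.3 (filterByExpr with a minimum count of 10, TMM factors 0.668 to 1.40, 1 mean per group over all libraries, Benjamini-Hochberg over 15289 genes). A call needed an adjusted p below 0.05 and, between groups, a log2 fold change of at least 1. Counts were simulated for SpM against the other 5 groups over 14092 genes, with each gene's dispersion as estimated here. From them the fit recovered 41 of 100 genes changed by a log2 fold of 2 and 59 of 100 changed by 3, with 8 false calls. Counting error limits precision at low depth, and the limit of 3 counts covers counting error only. Genes named were all Timp genes, members that differed among groups with a mean of at least 5 CPM, the 6 largest raw counts at a corrected 0, and the 4 highest by RPKM that did not pass the test among groups; the other chromosome 9 Mmp genes, Adamts18 and the ADAM genes with whole-number values were named after their values were seen. Members and lists were chosen with earlier results of these data known. Alternatives were RLE scaling, no filter, DESeq2 1.42.0, limma 3.58.1 on log2(RPKM + 0.1), raw counts, a replicate block and each library left out; leaving SpM out of the means that other groups were set against was added after seeing the data. Motifs were searched in RefSeq windows (GRCm38.p6). Members' starts in the corrected table equal RefSeq's for 52 of 70 genes.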

Additional observations from a re-analysis of the deposited data

How the results depend on the processing

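Under RLE scaling and DESeq2 all 37 called differences of genes named by rule kept their direction and call. No direction changed without the low-count filter (3 calls lost), with limma on RPKM (6 lost) or with the replicate block (1 lost). The calls of Mmp15 in Microglia and of Adam23 and Adamts9 in SpM, named after their values were seen, were not among the 37. RLE scaling moved the median of all genes to 0.19 for SAM, -0.17 for fat, 0.28 for SAM_fibers against sATM and -0.25 for SAM_ganglia against SAM_fibers. In the uncorrected gene-body counts 30 of the 37 calls were lost, with 5 members called among groups, 0 for SAM, 3 for SpM, 0 for Microglia, 0 for SAM_fibers against sATM and 0 for SAM_ganglia against SAM_fibers, and Mmp14 in SAM_fibers against sATM turned to -0.12; that table holds intron and DNA counts, and their part was not tested. SAM_fibers against sATM gave 5 members without the filter and 7 with DESeq2. Leaving out each library gave 0 to 6 members there (0 without sATM 1 or sATM 2, 6 without SAM_fibers 2), 2 to 5 for SAM_ganglia against SAM_fibers (5 without SAM_fibers 2), 7 to 12 for SpM (7 without SpM 1 or SpM 2), 11 to 16 among groups, 7 to 10 for SAM, 5 to 8 for fat, 8 to 10 for Microglia and 0 to 0 for sATM against vATM; the cause was not tested. A group left with 1 library is assumed to vary like the others. With SpM left out of the means, Adam15 turned to -0.56 in SAM and -0.16 in Microglia. Replicate numbers were not taken to pair the libraries in the main fit, since the labels do not say what they mark. Deviations of same-numbered libraries correlated between -0.38 and 0.64 (median 0.095, against -0.069 for other pairs), and 16 of 33 pairs were over 0.1. Of 15 libraries, 8 correlated best with their own number, and the 5 with the lowest olfactory receptor counts were all replicate 1. Whether the numbers mark a batch was not tested. With the block, 12 members differed among groups, 7 were called for SAM, 6 for fat, 12 for SpM, 9 for Microglia, 4 for SAM_fibers against sATM, 3 for SAM_ganglia against SAM_fibers and 0 for sATM against vATM. The share of all genes called under each alternative is not given here. These counts of members therefore cannot be set against the whole table. Of the 70 members, 31 had too few corrected counts to test. Among them were Adam12 and Adamts17, listed at 0 beside up to 6606 and 6014 raw counts. The parts of depth and of the correction in this were not tested.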

Other observations

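The uncorrected table holds 9 further symbols that fit the naming rule and that the corrected table, the base of the report, does not list: Adam3, Adam33, Adamts7, Adamts10, Adamts16, Mmp12, Mmp16, Mmp23 and Mmp25. The RPKM table holds 8 of them, all but Adamts10. The following were chosen after their values were seen and tested with limma on log2(RPKM + 0.1), a scale that understates changes of low genes. Mmp12, macrophage elastase, was at 3.35 and 26.4 RPKM in sATM and 4.86 and 8.22 RPKM in vATM, against 2.77 to 4.11 RPKM in SAM_ganglia, 0 and 5.13 RPKM in SAM_fibers, and at most 0.332 RPKM in SpM and 0.226 RPKM in Microglia. Fat was higher by 3.96 ± 0.88 on the log2 scale (adjusted p = 0.0136), while the libraries overlapped SAM, and SpM (-3.39 ± 0.98, adjusted p = 0.0387) and Microglia (-3.70 ± 0.98, adjusted p = 0.0208) were lower.

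Adamts16, a secreted protease, was at 2.29, 3.54 and 2 RPKM in Microglia and at most 0.25 RPKM in every other library (log2 4.53 ± 0.58, adjusted p = 7.77e-05). Its raw counts reached 2288 in SAM_fibers 1, where the RPKM was 0. Adam33 was at 1.19 to 7.94 RPKM in SAM_ganglia and 1.11 and 3.85 RPKM in SAM_fibers, against 0 to 2.04 RPKM in the other groups, which overlapped them (SAM against the other 4 groups, log2 2.40 ± 0.75, adjusted p = 0.0633).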
